A study of Mus musculus with 5 samples.

Results

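The beta-defensin family was taken as every row of the expression table whose RefSeq transcript belongs to a gene with a symbol made of Defb and a number. This gave 43 rows for 42 genes, out of 25631 rows on the array, with Defb41 the only gene that had more than 1 row. RNA of mouse testes at postnatal day 9 was hybridised to 5 single-colour arrays, in a study of what changes when the transcription factor gene Dmrt1 is deleted with different Cre drivers. The groups were 1 array of Dmrt1 KO testes with DHH-cre, 3 arrays of Dmrt1 KO testes with NGN-cre, and 1 Cre-negative control array that carries the NGN-cre genotype label. The labels give every animal as male and name the drivers only as DHH-cre and NGN-cre, give no strain and no Cre-negative control of the DHH-cre line, and do not say whether a sample is 1 animal or a pool. Only cells in a lineage that has expressed the driver lose Dmrt1, and in RNA of the bulk tissue fewer cells of a type cannot be told apart from less RNA per cell.

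Beta-defensins are small secreted cationic peptides whose fold is held by disulfide bonds between conserved cysteines. They kill bacteria by disrupting membranes, and some attract immune cells through chemokine receptors such as Ccr6. In the male tract many are made by the epididymis, where they coat maturing sperm. Defb19, also known as Tdl, was described in Sertoli cells, the somatic cells that nurse germ cells. The genes lie in tandem clusters that arose by duplication, so close relatives are neighbours.

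The arrays held signal from the tissue named on the labels. The 11 measured Sertoli cell markers, 8 germ cell markers and 6 Leydig cell markers all lay above the limit defined below for signal near background. Dmrt1 had an intensity of 6416 on the DHH-cre array and of 4884, 5644 and 5509 on the NGN-cre arrays, against 11847 on the control array, and the NGN-cre difference did not pass the test (limma, adjusted p = 0.281). The DHH-cre array stood apart from the other 4 over all rows, with Pearson correlations across log2 values of 0.974 to 0.981, against 0.986 to 0.993 among the others. Its array number also lies apart in the labels, so array batch and the DHH-cre deletion cannot be told apart in any result below.

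Values below are log2 intensities, on which a step of 1 is a 2-fold change. Most beta-defensin rows lay in the range of olfactory receptor transcripts, whose protein products work in the nose and which served as a measure of signal near background. The 1063 olfactory receptor rows had a median mean log2 intensity of 5.23 and a 95th percentile of 8.26. This percentile was used as the limit. The brightest of these rows was at 11.21, and whether any of them is expressed in testis was not tested. Of the 43 beta-defensin rows, 8 (18.6%) lay above the limit, against 62.2% of all 25631 rows. A further 22 lay between the olfactory receptor median and the limit, and 13 lay under that median. Defb20, at a mean of 8.35, lay just above the limit and Defb35, at 8.25, just under it. The rank of these rows among themselves depends on their probes as well as on RNA, so levels are read only against this range.

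**Figure D1:**
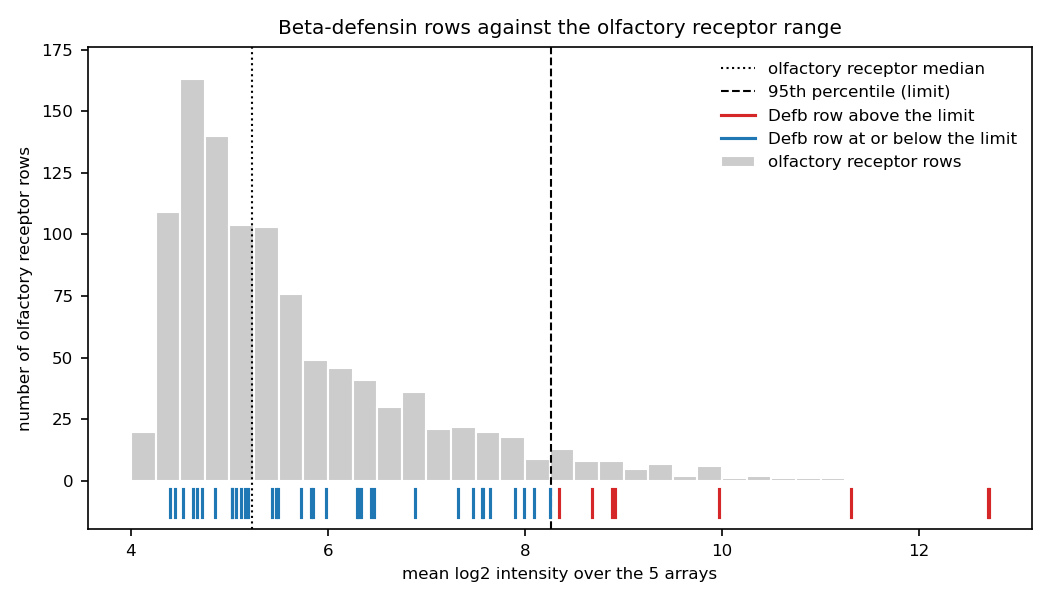
Number of olfactory receptor rows (grey bars) by mean log2 intensity over the 5 arrays, with the mean of each beta-defensin row as a tick below the bars, red above the limit and blue at or under it. The 3 rows farthest right, Defb36, Defb19 and Defb9, lie beyond the brightest olfactory receptor row, at 11.21.

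Among members of clear signal, Defb36 and Defb19 were bright in the control and dimmer on the DHH-cre array. Defb36 (NM_001037247) was at 10.46 on the DHH-cre array and at 13.34, 13.39 and 12.97 on the NGN-cre arrays, against 13.40 on the control array. The DHH-cre value was the only low one, and the control lay just above the highest NGN-cre value. Defb19 (NM_145157), the Sertoli cell member, was at 11.81 on the DHH-cre array and at 13.05, 12.64 and 12.72 on the NGN-cre arrays, against 13.30 on the control array. Here too the DHH-cre array was lowest, and the 3 NGN-cre arrays lay between it and the control. Defb42 (NM_001034910), known from the epididymis, was at 6.78 on the DHH-cre array and at 9.04, 9.69 and 9.61 on the NGN-cre arrays, against 9.44 on the control array. Its control value lay inside the NGN-cre range, and its DHH-cre value was under the limit.

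The other members above the limit varied less. Defb9 (NM_139219) was at 10.81 on the DHH-cre array and at 11.37, 11.28 and 11.62 on the NGN-cre arrays, against 11.47 on the control array. Defb22 (NM_001002791), which codes for a protein of the sperm surface coat, was at 10.12 on the DHH-cre array and at 10.07, 9.64 and 9.98 on the NGN-cre arrays, against 10.07 on the control array. For Defb9 the DHH-cre array was lowest, and for Defb22 the 5 arrays lay within 0.48 of each other. Defb34 was at 8.63 on the DHH-cre array and at 9.11, 8.57 and 8.79 on the NGN-cre arrays, against 9.27 on the control array. Defb39 was at 8.52 on the DHH-cre array and at 9.10, 8.34 and 8.71 on the NGN-cre arrays, against 8.73 on the control array. Defb20 was at 7.97 on the DHH-cre array and at 8.54, 8.66 and 8.22 on the NGN-cre arrays, against 8.38 on the control array. In these 3 genes the spread over the arrays stayed under 1, and for Defb20 the DHH-cre array was lowest.

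Rows at or under the limit include the best known antimicrobial members. Defb1, made constitutively by kidney and other epithelia, had a mean of 5.47 over the 5 arrays, and Defb14, the mouse counterpart of the human skin peptide DEFB103, had 4.72. Defb3 and Defb4, which epithelia induce on infection, had means of 7.90 and 6.88. Members known from the epididymis were also in this range, with means of 5.43 for Defb15, 5.83 for Defb18, 5.19 for Defb30, and 5.12 and 4.85 for the rows of Defb41. The 35 rows at or under the limit ran from 4.40 for Defb10 to 8.25 for Defb35. A difference in which a value lies in this range has an uncertain size. Over all 43 rows the lowest and highest of the 5 arrays were 0.28 to 2.94 apart, with a median of 0.70, and the widest gaps were those of Defb36 and Defb42.

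**Figure D2:**
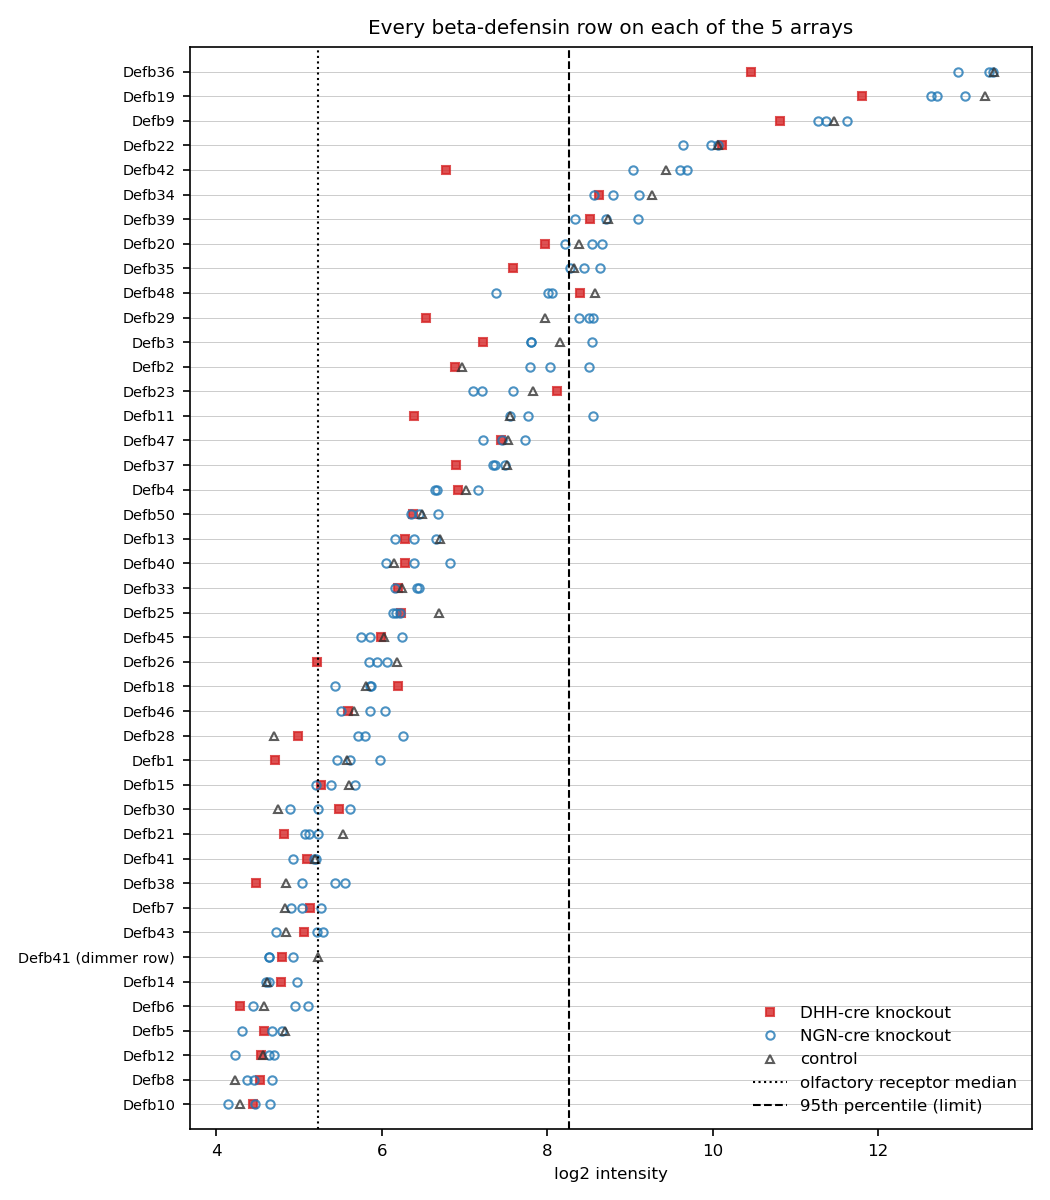
Log2 intensity of all 43 beta-defensin rows on each array, with red squares for the DHH-cre knockout, blue circles for the NGN-cre knockouts and triangles for the control, beside the olfactory receptor median (dotted, 5.23) and 95th percentile (dashed, 8.26). The red square stands apart to the left for the 5 members counted as lower than in the control, Defb36, Defb42, Defb29, Defb11 and Defb19.

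The DHH-cre deletion was compared with the NGN-cre deletion in a contrast that does not use the control. Defb36, Defb42 and Defb29 were lower in the DHH-cre knockout, and no member was called higher. Defb36 was 6.83-fold lower (log2 difference -2.77, SE 0.25; limma, Benjamini-Hochberg adjusted p = 0.0182). Defb42 was 6.34-fold lower (log2 difference -2.66, SE 0.30; adjusted p = 0.0213). Defb29 (NM_001001444), a member that in mouse tumours recruits dendritic cell precursors, was at 6.54 on the DHH-cre array and at 8.39, 8.51 and 8.55 on the NGN-cre arrays, with 7.97 on the control array. Its log2 difference between the knockouts was -1.94 (SE 0.21; adjusted p = 0.0213). For each of the 3 genes the DHH-cre value lay below all 4 other arrays. Defb29 and Defb42 ended under the limit on the DHH-cre array, so their folds are uncertain, whereas Defb36 stayed above it.

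These 3 calls, 6.98% of the beta-defensin rows, stand against 0.73% of all rows called lower in the same test. None was called higher (0 of 43), against 0.273% of all rows, and at an unadjusted p under 0.05 limma gave 13 rows lower and 1 higher, against 9.55% and 8.77% of all rows. The median difference was -0.16 over the 43 rows and 0.01 over all rows. Defb19 had a value 1.99-fold lower on the DHH-cre array (SE 0.25 on the log2 scale; limma, adjusted p = 0.112) and Defb11 a log2 difference of -1.56 (SE 0.39; adjusted p = 0.112), and neither passed. With prior variances that follow intensity, Defb19 passed (limma, adjusted p = 0.0339), and without NGN-cre replicate 3 Defb11 did (adjusted p = 0.031). Without NGN-cre replicate 1 only Defb42 passed (adjusted p = 0.0356), with Defb36 at an adjusted p = 0.0506 and Defb29 at an adjusted p = 0.0803, and their differences were -2.72 and -1.99. The test took the spread from the 3 NGN-cre arrays and assumed that the lone DHH-cre array varies like them. With 3 arrays against 1, an exact permutation test could give no p under 0.25. Over olfactory receptor rows the SD of differences was 0.47 to 0.55 against the DHH-cre array and 0.35 to 0.41 among the others.

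**Figure D3:**
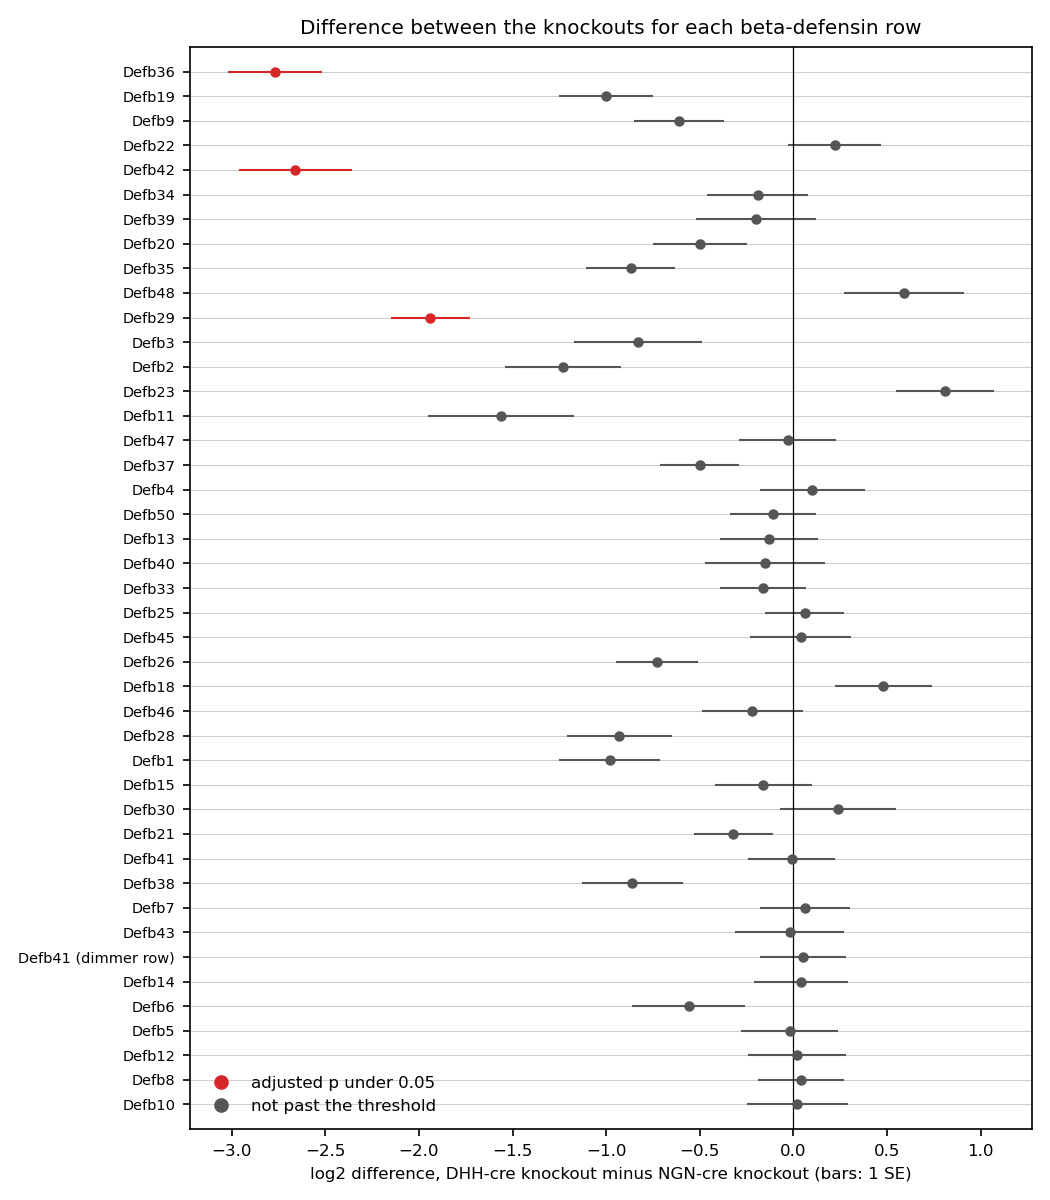
Log2 difference between the DHH-cre array and the mean of the 3 NGN-cre arrays for each beta-defensin row, with bars of 1 SE from limma, in order of mean intensity. The red points, past the threshold, are Defb36 (-2.77), Defb42 (-2.66) and Defb29 (-1.94).

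The promoters of these 3 genes are shown because their RNA levels were lower on the same array. Each line holds the 250 bases before the annotated start, 5′ to 3′, from RefSeq on GRCm38.p6, with capitals for the motifs searched:
Defb36, chr2:152604077-152604326, plus strand: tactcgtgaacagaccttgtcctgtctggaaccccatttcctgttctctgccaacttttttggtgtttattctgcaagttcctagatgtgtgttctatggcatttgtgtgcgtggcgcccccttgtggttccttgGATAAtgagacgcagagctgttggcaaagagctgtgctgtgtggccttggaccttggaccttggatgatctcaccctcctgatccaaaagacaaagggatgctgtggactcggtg
Defb42, chr14:63046741-63046990, plus strand: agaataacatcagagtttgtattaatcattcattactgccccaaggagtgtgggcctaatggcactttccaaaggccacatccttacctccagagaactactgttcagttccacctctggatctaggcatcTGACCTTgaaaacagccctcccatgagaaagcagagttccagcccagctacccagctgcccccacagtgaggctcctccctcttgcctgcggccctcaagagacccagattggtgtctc
Defb29, chr2:152540042-152540291, minus strand: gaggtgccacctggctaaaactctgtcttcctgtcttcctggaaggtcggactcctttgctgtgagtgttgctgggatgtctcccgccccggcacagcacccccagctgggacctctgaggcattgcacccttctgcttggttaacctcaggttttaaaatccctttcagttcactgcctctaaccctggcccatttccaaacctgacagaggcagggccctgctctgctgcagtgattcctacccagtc
The search covered both strands for the TATA box TATAAA, the SOX core AACAAT, the DM-domain core ACANTGT, the GATA core GATAA and the NR5A site AAGGTCA. Defb36 held 1 GATA core, 115 bases before the start, and Defb42 held 1 NR5A site on the reverse strand, 119 bases before the start. The window of Defb29 held none of the 5 letter strings, and the DM-domain core was in none of the 3 windows. Of 32851 promoter windows of the same length, 22.6% held the GATA core, 4.08% the NR5A site, 6.47% the DM-domain core, 12.4% the TATA box and 9.42% the SOX core. Of the 42 genes, 29 had a promoter in the table, with 30 windows, of which 11 held the GATA core, 4 the NR5A site, 6 the DM-domain core, 5 the TATA box and 1 the SOX core. A match in letters is no evidence of binding.

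The DHH-cre array was next set against the control array. With a single array on each side this gives values and no test. A row was counted where it changed 2-fold or more and by more than the NGN-cre replicates spanned. By this size rule 5 beta-defensin rows (11.6%) were lower in the DHH-cre knockout, against 4.81% of all rows, and 0 were higher, against 5.55% of all rows. They were Defb36 at -2.94 (7.69-fold lower), Defb42 at -2.66, Defb19 at -1.49 (2.81-fold lower), Defb29 at -1.43 and Defb11 at -1.16. Defb11 was at 6.39 on the DHH-cre array and at 7.55, 7.77 and 8.55 on the NGN-cre arrays, against 7.55 on the control array. Its lowest NGN-cre value equalled the control at this rounding, and all its values but the 8.55 lay under the limit. The median difference was -0.21 over the 43 rows and -0.02 over all rows. The DHH-cre array was the lowest of the 5 for 16 beta-defensin rows (37.2%), against 29.1% of all rows, and the highest for 3, against 29.0%. This comparison and the one that follows share the control array.

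No member passed the test between NGN-cre knockout and control. Of the 43 rows limma called 0 at an adjusted p under 0.05, as it did over all 25631 rows (0.0%). At an unadjusted p under 0.05 there were 3 higher and 2 lower, against 4.65% and 3.21% of all rows. Defb36 differed by -0.17 (SE 0.25; limma, adjusted p = 0.918), Defb42 by 0.00 (SE 0.30; adjusted p = 0.999) and Defb19 by -0.49 (SE 0.25; adjusted p = 0.706). The median difference was -0.04 over the 43 rows and -0.02 over all rows. The control lay outside the span of the NGN-cre replicates for 20 rows (46.5%), 13 times above it and 7 times below, against 54.5% of all rows. Here too, with 3 arrays and 1, the smallest p of an exact permutation test would be 0.25.

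By the size rule above, 2 members were higher in the NGN-cre knockout (4.65%), against 1.33% of all rows, and 0 were lower, against 0.546%. Defb2, a member that airway epithelium induces on contact with bacterial lipopolysaccharide, was at 7.79, 8.03 and 8.50 on the NGN-cre arrays, against 6.97 on the control array. The DHH-cre array had 6.88, so only the NGN-cre arrays were high. Its log2 difference from the control was 1.14 (SE 0.31; limma, adjusted p = 0.438). Defb28 was at 5.80, 6.26 and 5.71 on the NGN-cre arrays, against 4.70 on the control array, with 4.99 on the DHH-cre array. Its difference from the control was 1.22 (SE 0.28; limma, adjusted p = 0.358). Defb28 lay under the limit on all 5 arrays and Defb2 on all but 1, and neither passed the test. With log2(intensity + 32) the differences were 0.97 for Defb2 and 0.68 for Defb28, and without NGN-cre replicate 3 that of Defb2 was 0.94, each under 2-fold. The 31 rows not described one by one in these comparisons differed by -0.77 to 0.51 between NGN-cre knockout and control, by -0.95 to 0.74 between DHH-cre knockout and control, and by -0.98 to 0.81 between the DHH-cre and NGN-cre knockouts.

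Marker lists of testis and duct cells differed between these arrays in both directions. In the Sertoli cell list 9 of 11 measured markers were lower on the DHH-cre array than on the control array, with a median difference of -0.32. All 11 were also lower in the NGN-cre knockout than in the control, with a median difference of -0.28. The summed intensity of the list was 145726 on the DHH-cre array and 164893 to 182148 on the NGN-cre arrays, against 211834 on the control array. This sum is carried by the brighter genes. Between the DHH-cre array and the NGN-cre mean the median difference was -0.05, with 4 markers higher and 7 lower. Cst9, the testatin gene of the cystatin family, differed by -3.56 between the DHH-cre and control arrays, Fshr, the follicle-stimulating hormone receptor, by -2.27, and the transcription factor gene Sox8 by -1.08. Cst9 and Fshr were also lower in the DHH-cre than in the NGN-cre knockout, by -3.06 (limma, adjusted p = 0.0153) and -1.55 (adjusted p = 0.0369). In the same list Sox9 differed by -0.26 from the control on the DHH-cre array, Wt1 by 0.12, Gata4 by -0.15 and Inha by -0.07, none of them counted by the size rule. Germ cell markers were mostly higher, with a summed intensity of 214233 on the DHH-cre array and 187009 to 204906 on the NGN-cre arrays, against 160678 on the control array. Of 8, the size rule counted Tex101, a germ cell surface glycoprotein gene, 1.66 higher on the DHH-cre than on the control array, Rnf17 at 1.36 and Sycp3, of the synaptonemal complex, at 1.17, and the spermatogonial factor gene Zbtb16 at -1.03. Tex101 was also counted higher in the NGN-cre knockout than in the control. The 6 Leydig cell markers were all higher on the DHH-cre array than the NGN-cre mean, with a median of 0.42 and 0 called by limma, and 1 at an unadjusted p under 0.05. Their summed intensity was 98035 on the DHH-cre array and 67544 to 88873 on the NGN-cre arrays, against 81071 on the control array. The part of the cell makeup of the testes in the values of Defb19 and Defb36 was not tested.

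The epididymis list was mostly near background, with 10 of 13 markers under the limit, among them the lipocalin genes Lcn5 at a mean of 4.65 and Lcn8 at 5.65. Its summed intensity was 3615 on the DHH-cre array and 6726 to 8907 on the NGN-cre arrays, against 5871 on the control array. This sum is carried by the brighter genes: 7 of the 13 markers were higher on the DHH-cre array than the NGN-cre mean, the median difference was 0.08, and the DHH-cre array was the highest of the 5 for 6 of them. Crisp1, a secreted sperm-coating protein, was at 4.25 on the DHH-cre array and at 10.09, 10.33 and 10.26 on the NGN-cre arrays, against 8.28 on the control array. Spink8, a protease inhibitor gene, was at 6.64 on the DHH-cre array and at 10.22, 10.72 and 11.11 on the NGN-cre arrays, against 7.83 on the control array. Both were high on the NGN-cre arrays relative to the control, unlike Defb42, and low on the DHH-cre array, like Defb42. In the duct epithelium list all 8 markers lay lowest on the DHH-cre array, as did 29.1% of all rows. Their summed intensity was 27137 there, with 39477 to 45437 on the NGN-cre arrays and 31363 on the control array. This sum too is carried by the brighter genes, Epcam at a mean of 14.43 and Cdh1 at 12.59. Between the DHH-cre and NGN-cre knockouts the list had a median difference of -0.92, and the size rule counted 4 of the 8 markers lower. The median was 0.50 between NGN-cre knockout and control, with 7 markers higher and 1 lower. On the DHH-cre array the list had a median difference of -0.26 from the control, with -0.01 for Epcam and -1.32 for Pax8. In that comparison the size rule counted only Pax8 of this list. Its members Cdh1, the E-cadherin gene, and Pax8 differed by -1.99 (limma, adjusted p = 0.0484) and -1.19 (adjusted p = 0.0966) between the DHH-cre and NGN-cre knockouts, and Cdh1 was counted 1.30 higher in the NGN-cre knockout than in the control. The part of carried-over duct tissue in the values of Defb42, Defb29, Defb2 and Defb28 was not tested.

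**Figure D4:**
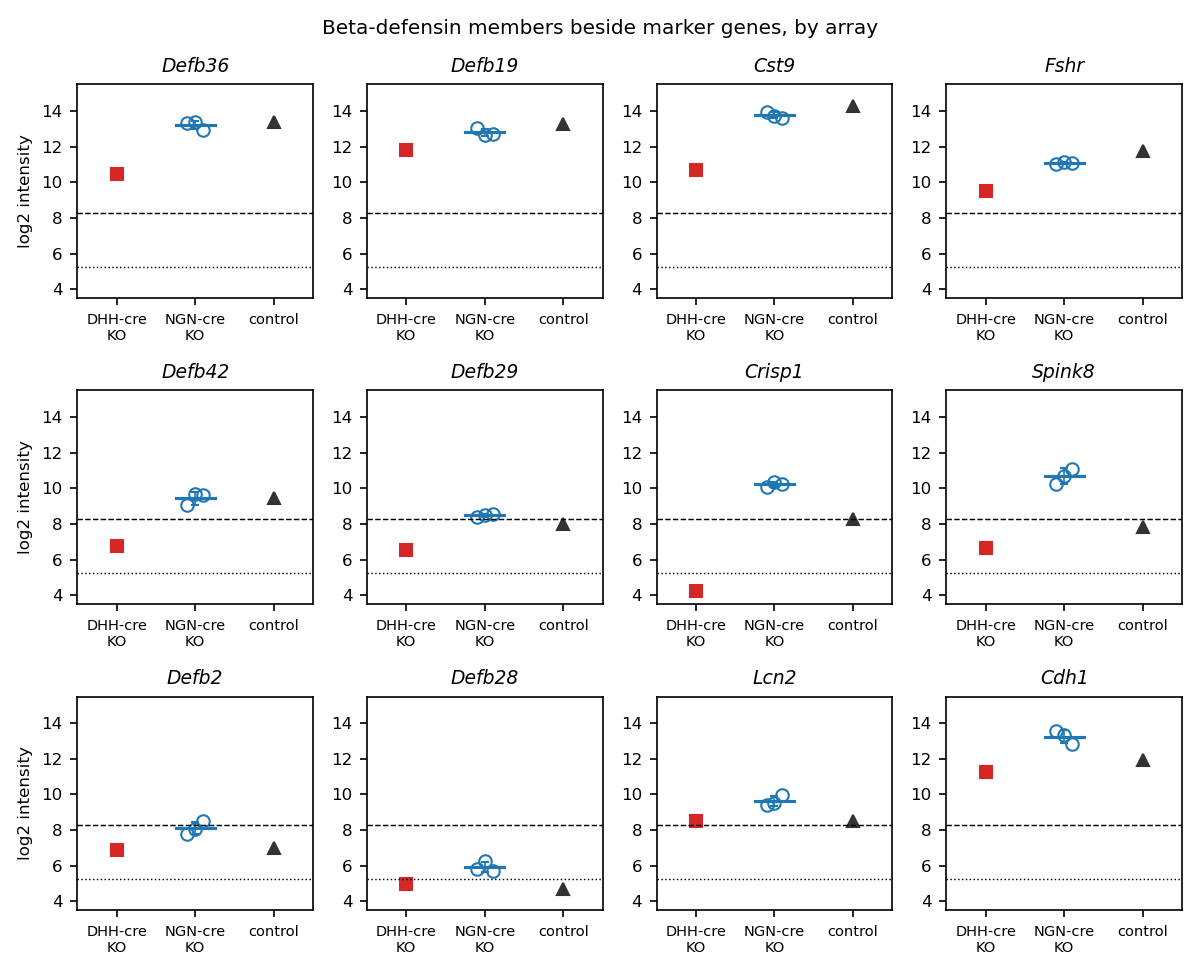
Log2 intensity by group for 6 beta-defensins and 6 marker or related genes: the DHH-cre knockout (square), the NGN-cre knockouts (circles, with a line at their mean and a bar of 1 SD, n = 3) and the control (triangle), with the olfactory receptor median (dotted) and 95th percentile (dashed). Defb36, Defb19, Cst9 and Fshr are lowest on the DHH-cre array, and Defb2, Lcn2, Crisp1 and Spink8 are highest on the NGN-cre arrays.

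Related host defence genes were measured in the same way. Of 10 measured defensin relatives, which were alpha-defensin genes, the epididymal defensin-like genes Spag11a and Spag11b, and the cathelicidin gene Camp, 0 were called by limma in either test and 0 were counted by the size rule against the control, and 9 lay at or under the limit. At an unadjusted p under 0.05 limma gave 1 higher and 1 lower between the DHH-cre and NGN-cre knockouts and 0 between NGN-cre knockout and control. Of 16 other secreted antimicrobial proteins 0 were called, and the size rule counted Lcn2, the siderophore-binding lipocalin, higher in the NGN-cre knockout than in the control, at 1.14. Of 14 receptor and signalling genes, among them the beta-defensin receptor gene Ccr6 at a mean of 7.96 and the adaptor gene Myd88 at 13.09, 0 were called or counted. At an unadjusted p under 0.05 these lists had 3 and 1 members lower and 2 and 1 higher between the DHH-cre and NGN-cre knockouts, and 1 each higher between NGN-cre knockout and control. Over all rows the shares were 9.55% lower and 8.77% higher between the DHH-cre and NGN-cre knockouts, and 4.65% higher between NGN-cre knockout and control. By the size rule, 1 of the 10 defensin relatives (Defa3 at -1.14) was lower in the DHH-cre than in the NGN-cre knockout. So were 3 of the 16 other secreted proteins, Wfdc15b at -1.91, Slpi at -1.13 and Lcn2 at -1.10. The rule counted 5 of the 43 beta-defensin rows and 847 of all 25631 rows lower in this comparison. Macrophage and neutrophil lists had 4 of 5 and 1 of 5 measured markers above the limit. Adgre1, a macrophage surface receptor, was 1.20 higher and Prtn3, a neutrophil protease, at -1.01 in the NGN-cre knockout relative to the control. Neither passed the test, and Prtn3 at -1.30 and Elane, another neutrophil protease gene, at -1.03 were counted lower on the DHH-cre than on the control array.

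Members above the limit sat beside neighbours under it. The cluster from Defb23 to Defb25 holds 11 genes, of which 4 lay above the limit, Defb19, Defb20, Defb22 and Defb36. Defb45, the gene between Defb19 and Defb36, had a mean of 5.98, and Defb21, on the other side of Defb19, had 5.16. Neither differed between the DHH-cre and NGN-cre knockouts past the threshold, at 0.04 for Defb45 (SE 0.27; limma, adjusted p = 0.955) and -0.32 for Defb21 (SE 0.21; adjusted p = 0.489). In the cluster from Defb48 to Defb42, Defb42 was the only one of 5 genes above the limit, and Defb30, its neighbour, had a mean of 5.19. The clusters from Defb40 to Defb7 and from Defb1 to Defb13 had 2 of 14 and 1 of 9 rows above it. Defb18, Defb41 and the lone Defb33 were under it. The 9 rows of the Defb1 to Defb13 cluster had a median difference of -0.61 between the DHH-cre and NGN-cre knockouts and the 11 of the Defb23 to Defb25 cluster -0.50, while the 14 of the Defb40 to Defb7 cluster had -0.17 and the 5 of the Defb48 to Defb42 cluster -0.02.

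Some neighbouring copies share long stretches of promoter, while over all 434 pairs of windows the median longest shared run was 8 bases. The median share of identical aligned bases was 4.0% of a window. Gaps at window ends carried no penalty in the alignment, so windows of little similarity could overlap by few bases. The 4.0% is therefore no baseline for the shares below. Defb9, above the limit, and its neighbour Defb11 are shown as an example, with capitals for the longest run of letters found in both windows of 250 bases:
Defb9, chr8:21885435-21885684, minus strand: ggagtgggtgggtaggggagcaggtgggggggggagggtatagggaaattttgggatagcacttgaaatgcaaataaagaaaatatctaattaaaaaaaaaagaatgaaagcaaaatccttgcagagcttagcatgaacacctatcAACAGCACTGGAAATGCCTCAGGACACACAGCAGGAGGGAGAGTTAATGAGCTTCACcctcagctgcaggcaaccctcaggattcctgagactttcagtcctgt
Defb11, chr8:21906433-21906682, minus strand: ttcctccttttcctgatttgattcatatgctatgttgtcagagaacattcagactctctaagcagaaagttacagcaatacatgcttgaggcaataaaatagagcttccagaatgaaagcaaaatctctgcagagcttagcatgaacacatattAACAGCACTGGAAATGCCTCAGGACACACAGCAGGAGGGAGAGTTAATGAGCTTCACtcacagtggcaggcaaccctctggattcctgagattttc
This run is 57 bases long, and 179 bases were identical in the alignment of the windows, 71.6% of a window. Defb3 and Defb8 shared 88.0%, and Defb10 and Defb11 74.8%. The mean levels of such pairs were 11.31 for Defb9 and 7.56 for Defb11, 7.90 for Defb3 and 4.45 for Defb8, and 4.40 for Defb10. Transcripts of close copies may share probe signal, and the sources used here do not give the position of the probes.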

How the data were processed

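RNA of testes, extracted with TRIzol, was hybridised with Cy3 to NimbleGen 60mer expression arrays, per the labels' protocols. The deposited values are linear intensity values, 1 per transcript and array, made with RMA per the submitters' processing notes, where its version is not stated. RMA equalises the arrays' distributions, so a change in total RNA cannot be seen. Probe numbers and positions are not given in the sources used here. Array medians ran from 721 to 730, and the number of arrays limits the precision.

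Log2 of the intensities was taken with no pseudocount and no filter. Identifiers were matched without versions to RefSeq genes of GRCm38.p6, used for names and order only: 17780 rows had 1 symbol, 0 had several and 7851 had none. Promoters come from the same build, and no coordinates of the array's own build are given. limma 3.58.1 in R 4.3.3 was used (lmFit, eBayes without trend, two-sided, Benjamini-Hochberg over all rows, threshold 0.05). It fitted 1 mean per group over 5 arrays with 2 residual degrees of freedom, all from the NGN-cre arrays. The same fit was run on simulated data in which each row had 1 spread on all 5 arrays. Those data could not show false calls that arise where the DHH-cre array varies more than the others. Nothing in the labels ties the 3 NGN-cre arrays to separate animals, so the p-values may reflect technical spread alone. Members, gene lists, motifs and tests were chosen with earlier results of these data known. Every member above the limit is given in full, other members where called or counted, and up to 4 genes of each list where called by limma or counted against the control. Figures and text also give some list genes and neighbours chosen after their values were seen. Alternatives covered normalization, centring, dim rows, pseudocount, variance trend, arrays in the fit and each NGN-cre replicate left out. Background correction could not be redone from summarised values, and no slide block was possible.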

Additional observations from a re-analysis of the deposited data

Results flagged for a closer look

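For 3 members the DHH-cre array differed from the NGN-cre arrays in a direct test, in which array batch and driver cannot be told apart. The log2 differences were -2.77 for Defb36, -2.66 for Defb42 and -1.94 for Defb29 (limma, Benjamini-Hochberg adjusted p = 0.0182 for the first and 0.0213 for the others), with the DHH-cre array below 3 of 3 NGN-cre arrays in each case. Over the alternatives the adjusted p ran from 0.00016 to 0.0506 for Defb36, from 0.00383 to 0.0356 for Defb42 and from 0.00687 to 0.0803 for Defb29. The DHH-cre side is 1 array, whose array number lies apart from the others. No group has enough arrays to look for a single outlying one.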

How the results depend on the processing

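Under the alternatives the count of members called between NGN-cre knockout and control stayed at 0. Between the DHH-cre and NGN-cre knockouts it was 3, 2 when only rows above the limit were kept (Defb29 not tested), 4 with the intensity trend (Defb19 added), and 1 to 4 with an NGN-cre replicate left out, where the 1 is Defb42, without replicate 1. Against the control, the DHH-cre array had 5 members counted, 3 when only rows above the limit were kept, since Defb11 and Defb29 were then not tested, 4 with log2(intensity + 32), where Defb11 fell short, and 2 (Defb36 and Defb42) with a 3-fold rule. The 8 members above the olfactory receptor limit became 16 with the 90th percentile, 4 with the 99th (Defb19, Defb22, Defb36 and Defb9) and 14 when the limit had to be passed on at least 1 array. They became 6 when it had to be passed on every array, where Defb20 and Defb42 dropped out. Without NGN-cre replicate 2 there were 7, with Defb20 missing. Of 288 values of single members under an alternative, 2 gained and 2 lost a limma call and 6 changed sign. Part of the 288 could not change, so the total overstates how much was tested. Leaving out an NGN-cre replicate does not alter a difference between the DHH-cre and control arrays. Fitting only the arrays of the groups compared leaves the same residual spread and gave the main values again. With log2(intensity + 32) dim members had smaller differences: -0.92 for Defb11 and -1.18 for Defb29 between DHH-cre knockout and control, and 0.68 for Defb28 between NGN-cre knockout and control. Defb11 differed by 0.10 between NGN-cre knockout and control without replicate 3 and by 0.40 with it. The 6 that changed sign were small NGN-cre against control differences: Defb42, at 0.00, became -0.01 with quantile normalization repeated and -0.01 with centring on medians, and ran from -0.12 to 0.21 with an NGN-cre replicate left out, over which Defb39 ran from -0.20 to 0.18 and Defb9 from -0.15 to 0.02. No paired analysis was possible because the labels give no replicate numbers and 2 groups have 1 array. Signal near background limits the size of differences for most members.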
